A study of Mus musculus with 12 samples.

Results

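The 10 genes described here encode nuclear receptors that bind fatty acids, oxysterols, retinoids, vitamin D or heme: Pparg, Ppard, Nr1h2 (LXRβ), Nr1h3 (LXRα), Rxra, Rxrb, Rara, Vdr, Nr1d1 (REV-ERBα) and Nr1d2 (REV-ERBβ). They were picked by symbol and matched to Ensembl gene IDs, which gave 10 of the 55414 genes counted. All 10 passed the filter on low counts. The 12 RNA-seq libraries came from tissue macrophages (t-CD45+CD11b+F4/80+CD64+) of the ischemic calf muscle of wild type C57BL6J males aged 8 to 12 weeks. Hindlimb ischemia was induced by tying off and removing the femoral artery, and cells were sorted on days 1, 2, 4 and 7 after injury (days post injury, dpi), with 3 libraries for each day. No uninjured muscle was analysed here, so every comparison is between days after injury, and the clock time of collection is not given in the sources used here. The labels do not say whether each library came from one animal, so P values measure the spread between libraries only.

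Nuclear receptors are transcription factors whose activity is set by small lipophilic ligands. The PPARs, LXRs, RARs and VDR bind DNA as heterodimers with an RXR, and in macrophages they regulate lipid uptake, cholesterol efflux and inflammatory genes, together with corepressors and coactivators. REV-ERBα and REV-ERBβ bind heme, lack the helix that recruits coactivators, and repress genes of the circadian clock and of the macrophage inflammatory response.

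Library totals ranged from 19528316 to 33599472 counts, of which a single gene ID (ENSMUSG00000119584) took 14.8% to 55.7%, leaving 8992759 to 18581365 counts for all other genes. Its share differed by day, being highest at 1 dpi (52.9% to 55.7%) and lowest at 7 dpi (14.8% to 30.1%). The TMM scaling factors also differed, from 0.652 to 0.726 at 1 dpi and from 1.35 to 1.7 at 7 dpi. In every library 7 macrophage markers summed to between 2349 and 3603 CPM, counts per 1000000 counts after TMM scaling of the libraries. Single markers moved in opposite directions, and from 1 to 7 dpi edgeR called 3 of the 7 higher and 2 lower. Itgam (log2FC -2.33, edgeR adjusted P = 1.71e-07) and Fcgr1 (-1.63, adjusted P = 1.70e-05) fell. Mertk (2.2, adjusted P = 4.15e-06) and Adgre1 (1.23, adjusted P = 0.000119) were among those that rose. Fibroblast markers summed to 14.4–50.6 CPM at 1 dpi, 27.4–43.3 CPM at 2 dpi, 131.5–255.5 CPM at 4 dpi and 409–831 CPM at 7 dpi, and 7 muscle fibre markers to 4.34–13.1 CPM at 1 dpi and 32.1–82.1 CPM at 7 dpi. Neutrophil markers went the other way, from 130–203 CPM at 1 dpi to 55.2–64.6 CPM at 2 dpi, 63.4–82.1 CPM at 4 dpi and 43.5–52.6 CPM at 7 dpi. Within this sum Csf3r, the G-CSF receptor gene, rose from 2 to 4 dpi (log2FC 1.18, edgeR adjusted P = 0.000879), while S100a8, S100a9 and Cxcr2 fell in that interval and none was above 1.09 CPM from 4 dpi on. Endothelial markers summed to 25.6–34.3 CPM at 1 dpi, 23.4–44.15 CPM at 2 dpi, 19.5–30.6 CPM at 4 dpi and 35.5–81.05 CPM at 7 dpi. The mitochondrial share of counts outside the dominant gene was highest in the second library of 7 dpi, at 18.9% against a low of 4.77%.

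The promoters of 4 receptors are shown because the receptors bind a common half-site, AGGTCA, as do the REV-ERBs when a T precedes it. Each window runs from 250 bases before to 50 bases after a RefSeq start site in the GRCm38.p6 build, 5′ to 3′ on the gene's strand, with AGGTCA or its reverse complement in capitals. Nr1d2 and Rxra were among the receptors whose transcripts rose from 2 to 4 dpi and carry the half-site. Nr1h3 rose without one, and Nr1d1 is the paralog of Nr1d2. Of the receptors not shown, Rxrb also rose without the half-site, and Pparg and Rara carry it but did not rise in that interval.
Nr1d2, chr14:18239057-18239356, minus strand: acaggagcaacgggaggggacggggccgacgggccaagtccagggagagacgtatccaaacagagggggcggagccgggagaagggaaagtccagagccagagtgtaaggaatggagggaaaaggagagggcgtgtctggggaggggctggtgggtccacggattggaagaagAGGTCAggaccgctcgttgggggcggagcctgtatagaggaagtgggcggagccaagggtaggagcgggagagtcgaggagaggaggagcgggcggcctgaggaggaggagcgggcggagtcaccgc
Rxra, the downstream of 2 start sites, chr2:27709042-27709341, plus strand: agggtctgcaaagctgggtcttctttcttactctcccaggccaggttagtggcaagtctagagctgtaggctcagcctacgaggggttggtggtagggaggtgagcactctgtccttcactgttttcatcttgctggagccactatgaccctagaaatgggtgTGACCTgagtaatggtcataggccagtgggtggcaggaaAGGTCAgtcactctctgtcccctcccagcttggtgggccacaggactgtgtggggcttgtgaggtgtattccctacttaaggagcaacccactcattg
Nr1h3, the upstream of 2 start sites, chr2:91195067-91195366, minus strand: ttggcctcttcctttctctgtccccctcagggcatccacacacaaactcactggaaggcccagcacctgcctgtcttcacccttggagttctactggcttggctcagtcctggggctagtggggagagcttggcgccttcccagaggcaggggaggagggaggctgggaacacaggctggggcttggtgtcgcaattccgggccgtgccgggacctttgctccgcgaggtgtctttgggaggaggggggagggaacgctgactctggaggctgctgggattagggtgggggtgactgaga
Nr1d1, chr11:98775328-98775627, minus strand: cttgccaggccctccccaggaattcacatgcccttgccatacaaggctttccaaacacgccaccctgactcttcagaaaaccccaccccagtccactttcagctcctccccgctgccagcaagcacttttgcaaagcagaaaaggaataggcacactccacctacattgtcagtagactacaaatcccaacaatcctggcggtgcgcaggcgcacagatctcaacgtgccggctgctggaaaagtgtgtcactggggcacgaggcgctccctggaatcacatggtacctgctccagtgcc

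RefSeq listed 18 windows for the 10 receptors, and 4 receptors held AGGTCA on either strand in at least 1 window. In Nr1d2 it began 77 bases before the start site, and in 1 of 2 Rxra windows at 87 and 48 bases before it. In 2 of 3 Pparg windows it began at 28 and 9 bases before the start site, and in 1 of 4 Rara windows 33 bases after it. Of all 32851 mouse windows of this length, 16.3% held AGGTCA. This share and those below are per window, so they cannot be set against a count of receptors, several of which have more than 1 window. The longer form TAGGTCA, which contains AGGTCA, was in 2.61% of all windows and in no window of the 10 receptors. The clock protein E-box CACGTG was in 7.15% of all windows and in Rara alone among the receptors, and the D-box TTANGTAA, the site of DBP and TEF, was in 2.32% of all windows and in none of theirs.

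Levels between receptors were compared per length, as RPKM, which is CPM divided by exonic length. Rara, a retinoic acid receptor, stood first at 1 dpi with 32.1 ± 2.00 RPKM (SD, n = 3), followed by Nr1h2 with 12.1 ± 1.30. At 2 dpi Rara was at 16.8 ± 0.944 RPKM and Nr1h2 at 10.1 ± 0.477, and on neither day did the libraries of these receptors overlap. At 4 dpi the first place went to Nr1h3 with 17.8 ± 3.78 RPKM, but its libraries overlapped those of Rara at 15.6 ± 1.81. At 7 dpi the first 6 receptors, in order Rara, Pparg, Nr1h3, Nr1h2, Rxra and Rxrb, lay between 9.71 ± 2.33 and 5.41 ± 1.22 RPKM and each overlapped its neighbour. Ppard held the ninth place and Vdr the tenth on every day, with Vdr at 0.125 ± 0.00545 RPKM at 7 dpi.

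**Figure D1:**
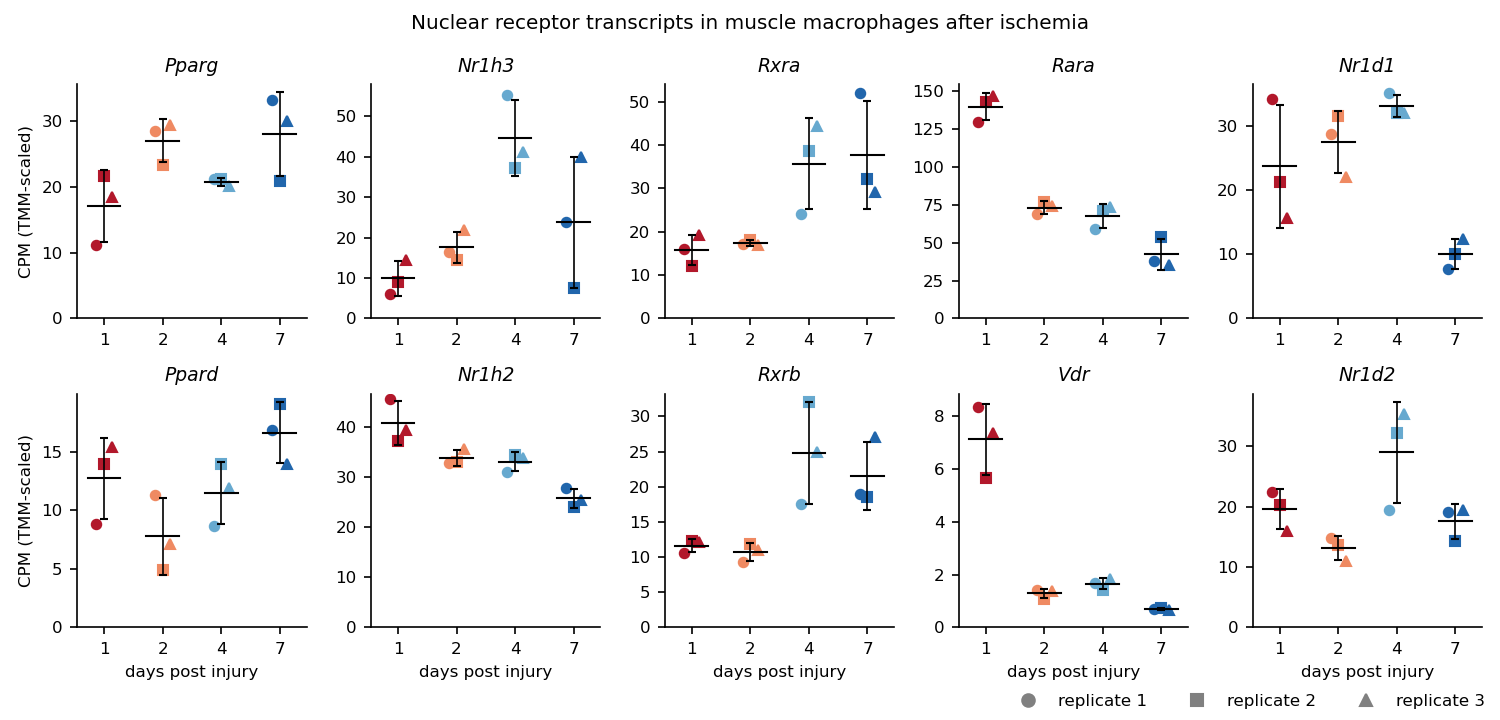
Normalised level (CPM, TMM-scaled, linear axes from 0) of the 10 receptor genes by days post injury. Each symbol is 1 library, the horizontal line is the mean of 3 libraries and the bar is ± 1 SD. Vdr dropped after 1 dpi, and Nr1d1 was lowest at 7 dpi. Nr1h3, Rxra, Rxrb, Nr1d2 and, by a small margin, Nr1d1 were higher at 4 than at 2 dpi in all libraries. The share of all genes that separate in this way was not computed.

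The transcript levels of all 10 receptors varied over the course (edgeR quasi-likelihood F test over the 4 time points, adjusted P 1.79e-06 to 0.0419), as did 61.5% of the 14310 genes tested. A call between 2 days required an adjusted P under 0.05 and an absolute log2 fold change (log2FC, later against earlier day) above 1. From 1 to 2 dpi, 1 receptor fell (Vdr), against 3.97% of all genes, and 0 rose, against 5.09%. At an unadjusted P under 0.05, 4 receptors were lower and 1 was higher at 2 dpi, and neither DESeq2 nor limma-voom called an increase. From 2 to 4 dpi, 4 receptors rose (Nr1h3, Rxrb, Nr1d2 and Rxra), against 8.02% of all genes, and the median log2FC of the 10 was 0.45 against 0.04 for all genes. Fibroblast markers rose in the same interval, 4 of 6 being called (Col1a1, Col1a2, Col3a1 and Dcn), as did the dendritic cell markers Flt3 and Clec9a, 2 of 6, whose list summed to 2.85–4.68 CPM at 2 dpi and 6.39–8.96 CPM at 4 dpi. Their part in the receptor increases was not tested. DESeq2 called the same number of receptors, limma-voom 3, and no receptor was lower at an unadjusted P under 0.05 in that interval, in which 3.88% of all genes fell. From 4 to 7 dpi, 2 receptors fell (Nr1d1 and Vdr), against 5.2% of all genes, and the median log2FC was -0.52 against -0.03. An increase was called for 0 receptors by edgeR, DESeq2 or limma-voom in that interval and none was higher at an unadjusted P under 0.05, while 7.44% of all genes rose. Over the whole course from 1 to 7 dpi, 2 receptors rose (Rxra and Nr1h3), against 19.7% of all genes, and 3 fell (Vdr, Rara and Nr1d1), against 14%, so that the share that rose was near that of all genes. In these bulk libraries, fewer cells with a transcript and less of it per cell cannot be told apart.

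**Figure D2:**
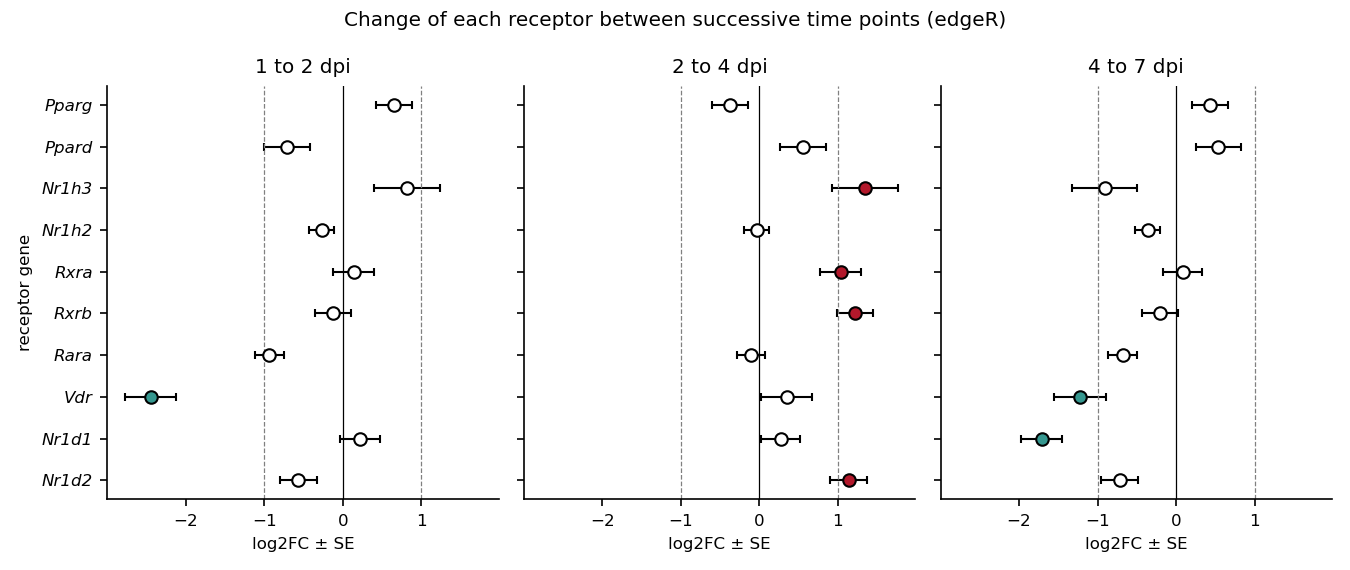
Change of each receptor from 1 to 2, 2 to 4 and 4 to 7 dpi as log2FC ± SE from edgeR, with 3 libraries per day. Filled circles passed an adjusted P of 0.05 and the log2FC threshold of 1 (dashed lines), red for increases and green for decreases. The increases called all fall between 2 and 4 dpi, and the decreases on either side of it.

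Among the heterodimer partners, Rxra had 16.0, 12.2 and 19.2 CPM in the libraries of 1 dpi and 17.1, 18.1 and 17.0 CPM in those of 2 dpi. It had 24.0, 38.5 and 44.3 CPM at 4 dpi and 51.9, 32.1 and 29.1 CPM at 7 dpi. All 6 later libraries were above all 6 earlier ones, and the first library of each later day was the outermost, low at 4 dpi and high at 7 dpi. The increase from 2 to 4 dpi was called (log2FC 1.03 ± 0.26 (SE), edgeR adjusted P = 0.00961), as was that from 1 to 7 dpi (1.26 ± 0.26, adjusted P = 0.000817). Without the second or the third library of 4 dpi the log2FC from 2 to 4 dpi was 0.97 or 0.85, limma-voom gave 0.98, and without the first library of 7 dpi that from 1 to 7 dpi was 0.97, each below the threshold of 1. That library also had the highest sums of fibroblast (831 CPM) and muscle markers (82.1 CPM), whose part in the level of Rxra was not tested.

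Rxrb, the other partner, also rose from 2 to 4 dpi. Its libraries held 9.31 to 11.8 CPM at 2 dpi and 17.5, 32.0 and 24.9 CPM at 4 dpi, with no overlap (log2FC 1.21 ± 0.23, adjusted P = 0.00171; 0.99 without the second library of 4 dpi). At 7 dpi it was at 19.0, 18.5 and 27.1 CPM, above every library of 1 dpi (10.5 to 12.2 CPM), and the log2FC of 0.89 ± 0.23 from 1 to 7 dpi passed the adjusted P (0.00464) but not the fold threshold, which it reached without the second library of 7 dpi (1.01). Per length the ratio of Rxra to Rxrb was between 0.722 and 1.99 over the 12 libraries. Rxrg, the third RXR gene, was not above 0.355 CPM in any library and was not tested.

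The LXRs sense oxysterols and switch on cholesterol efflux. Nr1h3, the isoform that is restricted to macrophages, liver, adipose and some other tissues, held 6.13, 9.11 and 14.5 CPM at 1 dpi, 16.4, 14.4 and 21.9 CPM at 2 dpi and 55.4, 37.3 and 41.2 CPM at 4 dpi. Every library of 4 dpi was above every earlier one. The increase from 2 to 4 dpi was called (log2FC 1.34 ± 0.42, adjusted P = 0.0326), but leaving out any 1 of the 6 libraries compared took the adjusted P to between 0.0504 and 0.117, with the log2FC between 1.15 and 1.56.

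At 7 dpi the Nr1h3 libraries spread over 23.9, 7.58 and 39.9 CPM, so that the second library reached back to the level of 1 dpi and the third to that of 4 dpi. The decrease from 4 to 7 dpi was not called (log2FC -0.91 ± 0.41, adjusted P = 0.112). It was called without the third library of 7 dpi (-1.50, adjusted P = 0.0145), by limma-voom (-1.18, adjusted P = 0.0340) and with the replicate number as a block (-1.10, adjusted P = 0.0316). The increase from 1 to 7 dpi was called (1.25 ± 0.42, adjusted P = 0.0222) but not without that library (0.67, adjusted P = 0.184), without the first or the second library of 1 dpi (adjusted P 0.0756 and 0.0550), by limma-voom (adjusted P = 0.0921) or in a fit of the 6 libraries alone (adjusted P = 0.0505). The second library of 7 dpi is the one with the highest mitochondrial share. It also had the highest sums of endothelial (81.05 CPM) and dendritic cell markers (25.8 CPM) of all libraries. The part of any of these in its low Nr1h3 level was not tested.

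Nr1h2, the isoform found in most cell types, held 45.6, 37.2 and 39.5 CPM at 1 dpi, 32.9 to 35.7 CPM at 2 dpi, 30.9 to 34.4 CPM at 4 dpi and 27.8, 24.0 and 25.4 CPM at 7 dpi. All libraries of 7 dpi lay below all earlier ones, and the log2FC from 1 to 7 dpi was -0.66 ± 0.16 (adjusted P = 0.00284), short of the fold threshold. From 2 to 4 dpi its log2FC was -0.03 ± 0.16 (adjusted P = 0.906). The ratio of Nr1h3 to Nr1h2 per length was 0.179–0.491 at 1 dpi and 0.584–0.819 at 2 dpi, then 1.44–2.39 and 0.421–2.09 on the later days. Nr1h2 was the more abundant isoform in all 6 libraries of 1 and 2 dpi and Nr1h3 in all 3 of 4 dpi, a description for which the difference between isoforms was not tested.

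LXR target genes were followed in a list of 15, of which 14 were tested. From 2 to 4 dpi 6 rose and 1 fell, with a median log2FC of 1.12 against 0.04 for all genes. The largest was Pltp, a phospholipid transfer protein of lipoproteins, at 70.6 to 92.4 CPM at 2 dpi and 424, 1417 and 987 CPM at 4 dpi (log2FC 3.51 ± 0.35, adjusted P = 9.07e-06). The cholesterol efflux transporter genes Abcg1 (3.07 ± 0.39, adjusted P = 7.22e-05) and Abca1 (2.10 ± 0.35, adjusted P = 0.000640), the gene for the LDL receptor ligase Mylip (1.48 ± 0.21, adjusted P = 0.000174) and that for the efferocytosis receptor Mertk (1.48 ± 0.24, adjusted P = 0.000600) rose with it, Mertk being also one of the macrophage markers. Apoe, the apolipoprotein gene, rose in that interval (1.34 ± 0.38, adjusted P = 0.0215) and again from 4 to 7 dpi (2.48 ± 0.40, adjusted P = 0.000869).

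Among the lipogenic members of the list, Fasn, the fatty acid synthase gene, fell from 2 to 4 dpi (-1.37 ± 0.26, adjusted P = 0.00149). Srebf1, the gene for the lipogenic transcription factor SREBP1, had a log2FC of -0.02 ± 0.17 (adjusted P = 0.960) and Scd2, a desaturase gene, of 0.37 ± 0.26 (adjusted P = 0.351) in that interval. At 7 dpi Abcg1 stood at 242, 99.0 and 284 CPM, lowest in the same library as Nr1h3, whereas Abca1 was at 614, 501 and 391 CPM with the third library lowest.

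Of the genes that make or remove receptor ligands, 12 of 19 were tested. From 2 to 4 dpi 3 rose and 4 fell, against 8.02% and 3.88% of all genes. Cyp27a1, whose enzyme makes 27-hydroxycholesterol, a ligand of the LXRs, was at 1.65 to 2.89 CPM at 2 dpi and 9.65, 31.8 and 23.3 CPM at 4 dpi (log2FC 3.19 ± 0.38, adjusted P = 4.20e-05). Ch25h, whose enzyme makes 25-hydroxycholesterol, was instead high at 2 dpi alone, with 17.6, 23.7 and 13.6 CPM against at most 6.84 CPM in any other library, and rose from 1 to 2 dpi (3.11 ± 0.66, adjusted P = 0.00523). The first library of 4 dpi was lowest of its day in Pltp, Abca1, Abcg1, Mylip and Cyp27a1 and in Rxra, Rxrb and Nr1d2, but highest in Nr1h3.

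**Figure D3:**
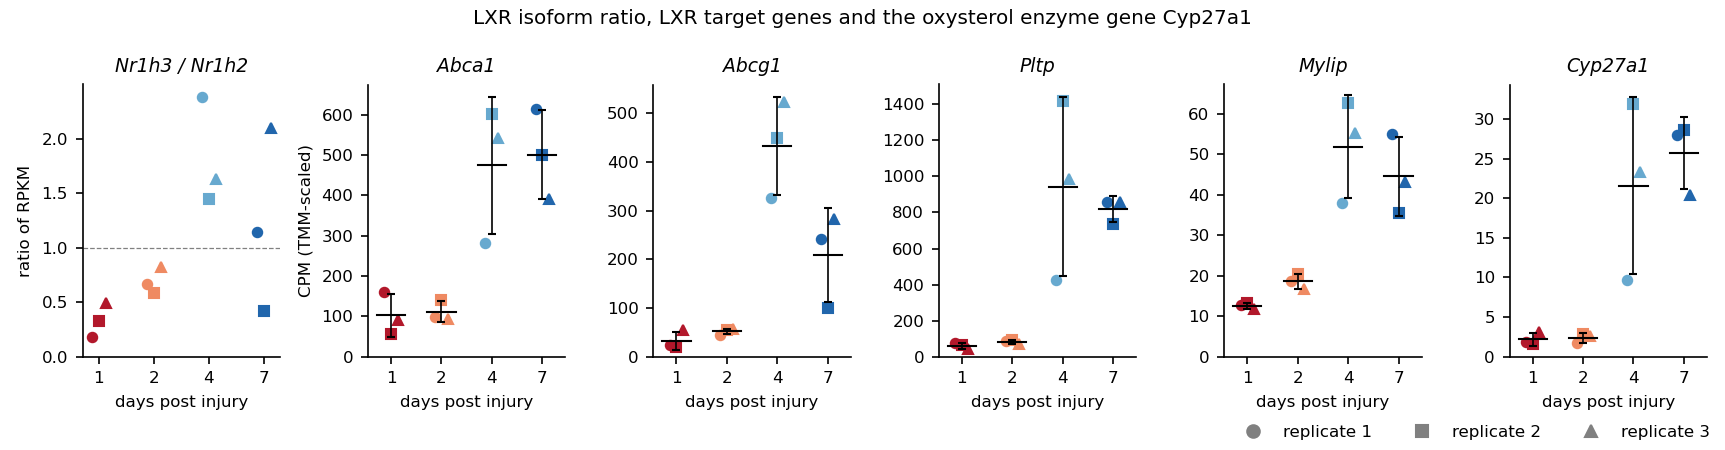
Ratio of Nr1h3 to Nr1h2 per length (first panel, dashed line at 1) and normalised levels (CPM, TMM-scaled, linear axes from 0) of 4 LXR target genes and of Cyp27a1 by days post injury. Each symbol is 1 library, lines are means of 3 libraries and bars ± 1 SD. The ratio exceeded 1 in all 3 libraries of 4 dpi, the day on which Abcg1, Pltp, Mylip, Abca1 and Cyp27a1 were all above their levels at 2 dpi. These genes were picked from those called higher in that interval, so their common direction follows from the choice. Of the 14 LXR targets tested, 6 rose and 1 fell. A link between the ratio and these genes was not tested.

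Pparg, the PPAR of lipid-loaded and alternatively activated macrophages, held 11.2, 21.7 and 18.4 CPM at 1 dpi, 28.5, 23.3 and 29.4 CPM at 2 dpi, 20.1 to 21.2 CPM at 4 dpi and 33.1, 20.9 and 30.0 CPM at 7 dpi. The libraries of 2 dpi were above all of 1 dpi and of 4 dpi, and those of 7 dpi overlapped those of 4 dpi. No interval was called: the log2FC was 0.65 ± 0.23 from 1 to 2 dpi (adjusted P = 0.0770), -0.38 ± 0.23 from 2 to 4 dpi (adjusted P = 0.272) and 0.43 ± 0.23 from 4 to 7 dpi (adjusted P = 0.177). From 1 to 7 dpi it was 0.70 ± 0.23 (adjusted P = 0.0193), under the fold threshold. The 7 adipocyte markers summed to at most 1.26 CPM in any library, with Adipoq at 0 in all but 1.

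Ppard, the PPAR expressed in most tissues, was the lower of the pair in every library, with a Pparg to Ppard ratio per length from 2.77 to 12.1. It held 8.80, 14.0 and 15.4 CPM at 1 dpi, 11.3, 4.88 and 7.13 CPM at 2 dpi, 8.65, 13.9 and 11.9 CPM at 4 dpi and 16.9, 19.1 and 13.9 CPM at 7 dpi, so that every day overlapped the next. The log2FC from 1 to 2 dpi was -0.71 ± 0.29 (adjusted P = 0.127) and became a call only without the first library of 2 dpi (-1.09, adjusted P = 0.0394). Ppara, the third PPAR gene, was not above 0.123 CPM in any library.

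Of 17 PPAR target genes 16 were tested, and their calls did not run one way. Of all genes, 5.09% rose from 1 to 2 dpi, and 8.02% rose and 3.88% fell from 2 to 4 dpi. From 1 to 2 dpi 2 PPAR targets rose: Gdf15, a stress-induced cytokine gene (log2FC 1.61 ± 0.32, adjusted P = 0.00305), and Fabp4, a fatty acid carrier gene (1.29 ± 0.34, adjusted P = 0.0184). Fabp4 lost its call without any of 4 libraries, namely the first or second of 1 dpi (adjusted P 0.0685 and 0.0767) and the second or the third of 2 dpi (0.0571 and 0.0763). From 2 to 4 dpi 2 rose, the peroxisomal fatty acid transporter gene Abcd2 (2.00 ± 0.30, adjusted P = 0.000244) and Angptl4, an inhibitor of lipoprotein lipase (1.41 ± 0.31, adjusted P = 0.00453), and the lipid droplet coat gene Plin2 fell (-1.23 ± 0.25, adjusted P = 0.00234).

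From 4 to 7 dpi 4 PPAR targets fell and none rose, with a median log2FC of -0.78 against -0.03 for all genes. None was higher at an unadjusted P under 0.05, and neither DESeq2 nor limma-voom called an increase. The fatty acid uptake receptor gene Cd36 went from 903, 856 and 764 CPM at 4 dpi to 148, 209 and 266 CPM at 7 dpi, the lowest level of the course (-2.02 ± 0.27, adjusted P = 0.000379). Angptl4 (-1.32 ± 0.30, adjusted P = 0.00640), the mitochondrial carnitine carrier gene Slc25a20 (-1.08 ± 0.21, adjusted P = 0.00226) and Plin2 (-1.01 ± 0.24, adjusted P = 0.00807) followed. The last 2 of these lay near the fold threshold and were below it with DESeq2 (-0.99 and -0.92), which called 2 of the 4. Without the third library of 7 dpi 8 were called, and without the second 2.

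Rara was the most abundant receptor early and declined in steps. Its libraries held 130, 143 and 147 CPM at 1 dpi, 68.8, 77.0 and 74.0 CPM at 2 dpi, 59.0, 71.1 and 73.8 CPM at 4 dpi and 37.8, 54.0 and 35.2 CPM at 7 dpi. Days 1 and 7 stood apart from all others, while 2 and 4 dpi overlapped. The change from 1 to 2 dpi (log2FC -0.94 ± 0.18, adjusted P = 0.00301) and that from 4 to 7 dpi (-0.68 ± 0.18, adjusted P = 0.0143) each passed the adjusted P but not the fold threshold, and the decrease from 1 to 7 dpi was called (-1.73 ± 0.19, adjusted P = 2.84e-06). Rarg, a second retinoic acid receptor gene, fell from 31.7–33.9 CPM at 1 dpi to 12.3–14.6 CPM at 2 dpi (-1.32 ± 0.22, adjusted P = 0.000995).

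Of 9 RAR targets 4 were tested, of which 2 fell from 1 to 2 dpi, 1 rose from 2 to 4 dpi and 1 fell from 4 to 7 dpi. Of all genes, 3.97%, 8.02% and 5.2% did so in these intervals. Tgm2, the transglutaminase gene, fell in the first and the last of these intervals, and over the course from 985, 687 and 547 CPM at 1 dpi to 79.2, 56.0 and 168 CPM at 7 dpi (log2FC -2.87 ± 0.35, adjusted P = 8.03e-06). Its call from 1 to 2 dpi was lost without the first library of 1 dpi (adjusted P = 0.0522) or the second of 2 dpi (0.05002). Hic1, a transcriptional repressor gene, fell from 1.57–1.73 CPM at 1 dpi to 0.526, 0.0996 and 0.573 CPM at 2 dpi (-1.99 ± 0.57, adjusted P = 0.0310) and rose to 1.15, 1.24 and 2.37 CPM at 4 dpi (1.93 ± 0.57, adjusted P = 0.0250). The decrease of Hic1 was lost without any 1 of the 6 libraries compared (adjusted P 0.0530 to 0.114) and the increase without any of 3 (0.0517 to 0.127), and limma-voom called neither. Aldh1a2, whose enzyme makes retinoic acid, was at 1.00 to 1.59 CPM at 2 dpi and 8.05, 3.99 and 5.97 CPM at 4 dpi (2.25 ± 0.39, adjusted P = 0.000782). It fell from 1 to 2 dpi (-1.38 ± 0.39, adjusted P = 0.0256) and from 4 to 7 dpi (-1.23 ± 0.36, adjusted P = 0.0217). Leaving out single libraries took these adjusted P values as high as 0.115 and 0.105. From 1 to 7 dpi Aldh1a2 was not called (-0.36 ± 0.37, adjusted P = 0.435). Neutrophil markers fell over the same first interval as Rara and Rarg, and their part in the decreases of these 2 receptors was not tested.

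Vdr, the vitamin D receptor gene, showed the widest range of the 10 as a fold between its highest and lowest library. It held 8.33, 5.66 and 7.34 CPM at 1 dpi, from 106 to 159 counts, and 1.43, 1.09 and 1.36 CPM at 2 dpi, from 22 to 38 counts. At 4 dpi it stood at 1.69, 1.42 and 1.84 CPM and at 7 dpi at 0.702, 0.739 and 0.678 CPM, where 24 to 26 counts were behind each value. Libraries of 1 dpi were all above the rest and those of 7 dpi all below. The decrease was called from 1 to 2 dpi (log2FC -2.45 ± 0.33, adjusted P = 0.000177), from 4 to 7 dpi (-1.22 ± 0.33, adjusted P = 0.0143) and from 1 to 7 dpi (-3.32 ± 0.34, adjusted P = 1.58e-06). That from 4 to 7 dpi was not called when the 6 libraries were fitted alone (-1.16, adjusted P = 0.123). The summed neutrophil markers fell from 130–203 to 55.2–64.6 CPM in the first of these intervals, and their part in it was not tested.

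Cyp24a1, the vitamin D degrading enzyme gene that VDR induces, had 0 counts in all 12 libraries, and Cyp27b1, whose enzyme makes the active hormone, was not above 0.0810 CPM. Of 5 VDR targets 3 were tested, of which 1 fell from 4 to 7 dpi, and 1 rose and 1 fell from 1 to 7 dpi. Of all genes, 5.2% fell from 4 to 7 dpi, and 19.7% rose and 14% fell from 1 to 7 dpi. Spp1, the osteopontin gene, was at 4879 to 7062 CPM at 2 dpi and at 684, 106 and 1169 CPM at 7 dpi, in the same order of libraries as Nr1h3. From 1 to 2 dpi, when Vdr fell, Spp1 had a log2FC of 1.63 ± 0.57 and was not called (edgeR adjusted P = 0.0740). Its decrease from 4 to 7 dpi (log2FC -2.05 ± 0.58, adjusted P = 0.0182) was lost without the first library of 4 dpi (adjusted P = 0.0698) or of 7 dpi (0.0543) and in a fit of the 6 libraries alone (0.0530). That from 1 to 7 dpi (-1.49 ± 0.57, adjusted P = 0.0397) was lost without any of 5 libraries, with an adjusted P up to 0.164. Lrp5, a Wnt coreceptor gene, rose from 1 to 7 dpi (1.53 ± 0.30, adjusted P = 0.000613).

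Of the REV-ERB genes, Nr1d2 rose from 2 to 4 dpi and Nr1d1 fell from 4 to 7 dpi. Nr1d1 held 34.3, 21.3 and 15.6 CPM at 1 dpi, 28.8, 31.7 and 22.1 CPM at 2 dpi, 35.2, 32.1 and 32.1 CPM at 4 dpi and 7.80, 10.1 and 12.5 CPM at 7 dpi. The 3 libraries of 7 dpi were the lowest of the 12. The decrease was called from 4 to 7 dpi (log2FC -1.71 ± 0.26, adjusted P = 0.000687) and under every alternative tried, and from 1 to 7 dpi (-1.22 ± 0.26, adjusted P = 0.00103), where it was -0.80 without the first library of 1 dpi. No alternative tried bears on the clock time of collection, which is not given. Day after injury and hour of collection thus cannot be told apart for Nr1d1.

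Nr1d2 held 22.5, 20.2 and 16.0 CPM at 1 dpi, 14.8, 13.7 and 10.97 CPM at 2 dpi, 19.5, 32.3 and 35.3 CPM at 4 dpi and 19.2, 14.3 and 19.4 CPM at 7 dpi. All libraries of 4 dpi were above those of 2 and of 7 dpi, by the narrowest margin in the first one. The increase from 2 to 4 dpi was called (log2FC 1.14 ± 0.24, adjusted P = 0.00300; 0.97 without the third library of 4 dpi). The change from 4 to 7 dpi passed the adjusted P alone (-0.72 ± 0.23, adjusted P = 0.0328). Per length Nr1d1 was 3.42 to 4.05 times as abundant as Nr1d2 at 2 dpi and 0.715 to 1.24 times at 7 dpi, without overlap.

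Exons of Nr1d1 overlap those of Thra, the thyroid hormone receptor α gene on the opposite strand, by 263 bases or 8.55% of the exonic length of Nr1d1. The library protocol does not keep strand, so reads from this stretch cannot be assigned to either gene. Thra moved the other way, from 9.74, 12.6 and 11.8 CPM at 4 dpi to 25.7, 17.3 and 13.3 CPM at 7 dpi (log2FC 0.73 ± 0.23, adjusted P = 0.0278). Nr1h3 shares 34 exonic bases with the transcript Gm13783.

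Other genes of the clock were followed in a list of 20, of which 18 were tested. From 2 to 4 dpi 4 rose: Dbp (log2FC 2.70 ± 0.53, adjusted P = 0.00210) and Tef (1.06 ± 0.33, adjusted P = 0.0315), whose proteins act at D-boxes, the period gene Per3 (1.31 ± 0.30, adjusted P = 0.00603), and Rora (1.71 ± 0.36, adjusted P = 0.00359), whose protein competes with the REV-ERBs for their site. Dbp was at 2.00, 10.3 and 3.25 CPM at 4 dpi, so that the second library set much of its mean. Tef lost its call without any of 4 libraries, with an adjusted P up to 0.152. The median log2FC of the list was 0.25 in this interval against 0.04 for all genes, and none of its genes fell past both thresholds with edgeR, DESeq2 or limma-voom, though 2 were lower at an unadjusted P under 0.05.

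From 4 to 7 dpi, the interval in which Nr1d1 fell, Rora (1.20 ± 0.34, adjusted P = 0.0184) and Per2 (1.24 ± 0.39, adjusted P = 0.0298) rose. The call of Rora was lost without any of 3 of the 6 libraries compared (adjusted P 0.0619 to 0.0748) and that of Per2 without any of 5 (0.0761 to 0.0951). Arntl, the gene for the clock activator BMAL1 and a classic target of REV-ERB repression, was at 7.11, 9.90 and 8.12 CPM at 4 dpi and 12.2, 20.2 and 10.3 CPM at 7 dpi, without overlap but short of a call (0.77 ± 0.29, adjusted P = 0.0612). From 1 to 7 dpi it rose (1.16 ± 0.30, adjusted P = 0.00422). For the clock genes too, day after injury and hour of collection cannot be told apart.

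REV-ERB repressed genes of the macrophage response went in opposite directions. Ccl2, a monocyte chemokine gene, fell from 763–1055 CPM at 2 dpi to 175, 23.5 and 52.1 CPM at 4 dpi (log2FC -3.41 ± 0.50, adjusted P = 0.000230). Cx3cr1, the fractalkine receptor gene, rose from 75.9–121 to 307, 538 and 465 CPM (2.12 ± 0.37, adjusted P = 0.000807). Of the 8 genes of this list, all tested, 1 rose and 1 fell from 2 to 4 dpi, against 8.02% and 3.88% of all genes. In the clock list too are 5 of the 8. As Nr1d1 fell from 4 to 7 dpi, Ccl2 was the only gene of the REV-ERB repressed list called and fell further, to 18.3, 22.2 and 22.9 CPM (-1.98 ± 0.48, adjusted P = 0.00792), a call lost without the first library of 4 dpi (-0.86, adjusted P = 0.0572).

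**Figure D4:**
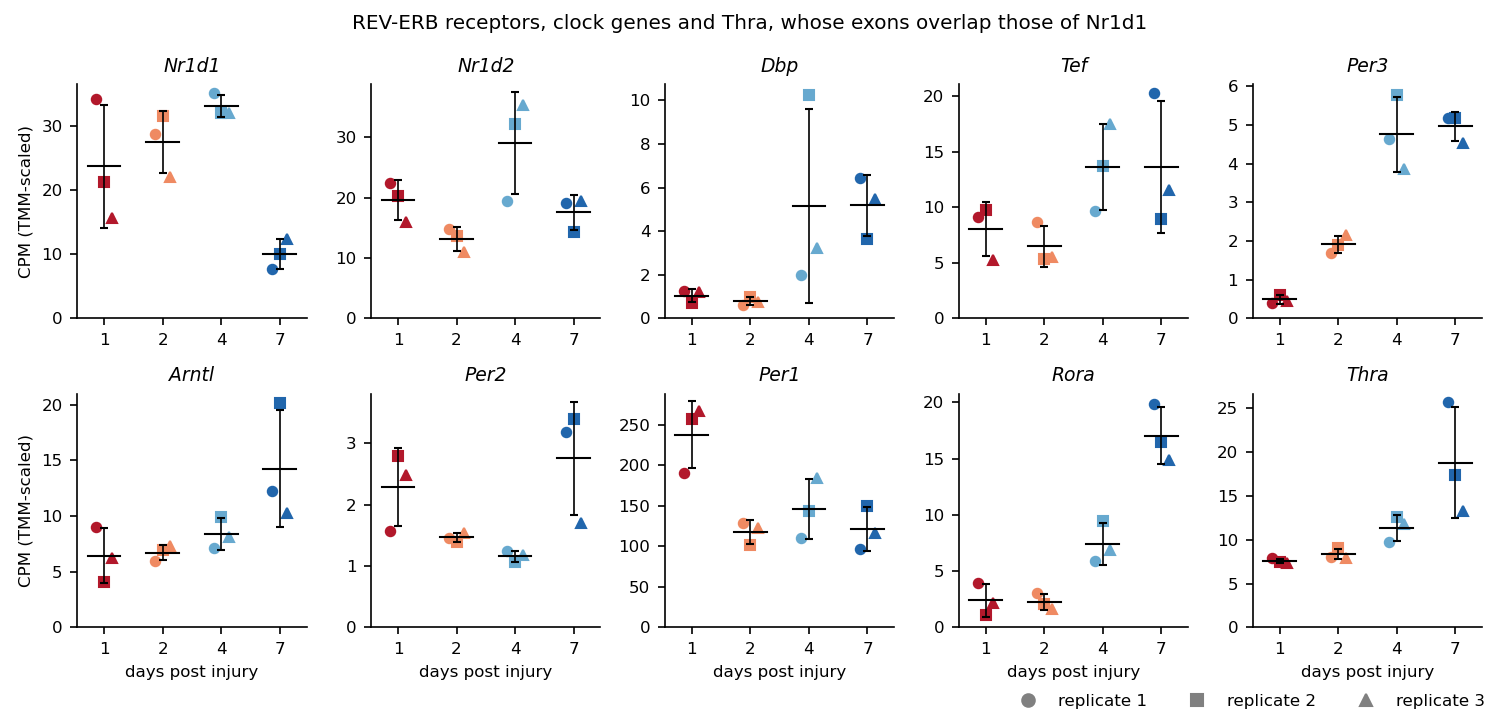
Normalised levels (CPM, TMM-scaled, linear axes from 0) of Nr1d1, Nr1d2, 7 other clock genes and Thra by days post injury. Each symbol is 1 library, lines are means of 3 libraries and bars ± 1 SD. Nr1d1 was at 7.80 to 12.5 CPM at 7 dpi, below all earlier libraries, while Nr1d2 peaked at 4 dpi and Rora was highest at 7 dpi. The clock time of collection is not given, so day and hour cannot be told apart.

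Of 16 coregulator genes 15 were tested. From 4 to 7 dpi 4 rose and none fell, with a median log2FC of 0.55 against -0.03 for all genes. DESeq2 and limma-voom also called 4 increases and no decrease, and 1 gene was lower at an unadjusted P under 0.05. Ncor1, the corepressor gene through which unliganded receptors and the REV-ERBs act, went from 40.4, 36.0 and 45.0 CPM to a mean of 98.9 ± 28.5 CPM (SD, n = 3) (1.29 ± 0.21, adjusted P = 0.00106). At 7 dpi it was highest in the first library, as were Thra and Rxra and the fibroblast and muscle marker sums, whose part in these levels was not tested. The coactivator gene Ncoa6 (1.17 ± 0.24, adjusted P = 0.00311), the acetyltransferase gene Crebbp (1.16 ± 0.24, adjusted P = 0.00322) and the corepressor gene Nrip1 (1.20 ± 0.31, adjusted P = 0.0125) rose with it. Ncoa6 and Crebbp fell below the fold threshold without the first library of 7 dpi (0.96 and 0.88) or the second of 4 dpi (both 0.97). Nrip1 did so without the first of 4 dpi (0.93) or the second of 7 dpi (0.94).

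Of 39 other nuclear receptor genes only 17 had enough counts to be tested. From 2 to 4 dpi 2 rose, Rora and the estrogen receptor gene Esr1 (log2FC 1.62 ± 0.38, adjusted P = 0.00726). The immediate early genes Nr4a2 (-1.77 ± 0.33, adjusted P = 0.00144) and Nr4a3 (-1.15 ± 0.27, adjusted P = 0.00626) fell. Of all genes, 8.02% rose and 3.88% fell in that interval. From 4 to 7 dpi 3 rose and 0 fell, against 7.44% and 5.2% of all genes. None was lower at an unadjusted P under 0.05 or called lower by DESeq2 or limma-voom. Those that rose were Rora, Nr2c2, the gene for the orphan receptor TR4 (1.19 ± 0.25, adjusted P = 0.00375), and Thrb, the thyroid hormone receptor β gene. Thrb had 0 counts in all libraries of 4 dpi and stood at 0.270, 0.955 and 0.113 CPM at 7 dpi (adjusted P = 0.0426), a call lost with DESeq2 (adjusted P = 0.207) and without any of 5 libraries (0.0675 to 0.151). The median log2FC of these 17 receptors was 0.83 from 4 to 7 dpi, against -0.03 for all genes. From 2 to 4 dpi it was 0.00, which is the value of Thrb (log2FC 0 with an SE of 0) and not a measured change.

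The genes whose log2 CPM followed each receptor most closely over the 12 libraries were searched among genes whose log2 CPM averaged 4 or more. Nr1h3 ran closest to Lipa, the lysosomal acid lipase gene (Pearson r = 0.92), and Nr1h2 to Srebf1 (0.97). Rara ran closest to Ccr2, the receptor gene of inflammatory monocytes (0.96), Vdr to Gm6377 and Gsr (both 0.95), Rxra to Arl5a (0.97) and Rxrb to Tep1 (0.97). Pparg ran closest to Myof (0.90), Ppard to Ptprs (0.89), Nr1d1 to Mgrn1 (0.96) and Nr1d2 to Arhgap9 (0.92). Within the family the closest pairs were Rara and Vdr (0.93), Nr1h2 and Vdr (0.87), Nr1h2 and Rara (0.87) and Rxra and Rxrb (0.81), while Nr1d1 and Nr1d2 were at 0.30. These values are descriptions over 12 libraries that share their days, and a gene that merely rises or falls with time scores high with any other that does.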

How the data were processed

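RNA of 12 libraries, 3 per time point, was sequenced with an unstranded poly(A)-primed Smart-seq2/3 protocol. Per the labels, the authors used Trim Galore 0.6.6, HISAT2 2.2.1 (GRCm39) and Subread 2.0.1, and deposited raw counts. Symbols (52081 of 55414 IDs) and exonic lengths were taken from an annotation of GRCm38 by gene ID, so no GRCm39 coordinates are given. Of counts from 1 to 20, a median of 83.1% were even per library. If mates were counted singly, small counts overstate fragments. No 2 libraries agreed within sampling noise (chi-square per degree of freedom at least 14.7).

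After filterByExpr (14310 genes) and TMM scaling, edgeR 4.0.16 (R 4.3.3) fitted each time point as a coefficient over the 12 libraries together. Days were compared by the quasi-likelihood F test, with Benjamini-Hochberg adjustment over the genes tested, an FDR threshold of 0.05 and a log2FC threshold of 1. Log2 CPM used a prior count of 2. Alternatives were DESeq2 1.42.0, limma-voom (limma 3.58.1), other filters, RLE scaling, a replicate block, 6-library fits, no fold threshold, removal of the dominant gene and of each library. Scripts were tested on simulated data.

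Members and lists were chosen with earlier results of these data known, the lists from general knowledge. The text names all 10 receptors, up to 4 called genes of smallest P per list and comparison, and the genes most correlated with each receptor. Abca1, Apoe from 2 to 4 dpi, Fasn, Srebf1, Scd2, Arntl, Thra and genes at or near 0 were named after their values were seen. RefSeq windows (GRCm38.p6) were searched on both strands.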

Additional observations from a re-analysis of the deposited data

How the results depend on the processing

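Of the receptor and gene-list values recomputed under the alternatives, 3230 of 3433 single-gene values kept their direction and side of the thresholds, 190 lost a call, 5 gained one and 8 changed sign. The changes of sign all concerned receptors with no call and single libraries left out: Nr1h2 from 2 to 4 dpi (0.033 without the third library of 2 dpi and 0.0079 without the first of 4 dpi, in a range from -0.067 to 0.033), Rxra from 1 to 2 dpi (-0.0094 without the second of 1 dpi, range to 0.32) and from 4 to 7 dpi (-0.15 and -0.22 without the first of 4 or of 7 dpi, range to 0.25), Rxrb from 4 to 7 dpi (0.0032 without the second of 4 dpi, range from -0.42) and Nr1d2 from 1 to 7 dpi (0.026 and 0.0094 without the first of 1 dpi or the second of 7 dpi, range from -0.21).

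Without the fold threshold, 2, 4 and 8 receptors were called from 1 to 2, 4 to 7 and 1 to 7 dpi, and 2785 and 3656 genes from 2 to 4 and 4 to 7 dpi. In a fit of the 6 libraries, 1 receptor was called from 4 to 7 dpi. With each library left out in turn, the receptors called numbered 1 to 2, 1 to 4, 2 to 3 and 3 to 6 in the order 1 to 2, 2 to 4, 4 to 7 and 1 to 7 dpi, and 7 to 10 for any time point. The 4 receptors from 2 to 4 dpi became 1 without the second or the third library of 4 dpi. All genes called then numbered 896 to 1409, 1122 to 2325, 1009 to 2626 and 4456 to 4971, and 7974 to 8859 for any time point. From 4 to 7 dpi, increases made up 58.8% of all calls, 68.4% with RLE scaling, 70.3% with DESeq2 and 70.2% in a fit of the 6 libraries, but 42.8% without the fold threshold and 50.1% to 63.9% with single libraries left out. The causes were not tested.

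Same-numbered libraries of different days had deviations from their day means that correlated between -0.133 and 0.127, against -0.221 to 0.265 for libraries of different number. Pairing by number was thus not visible in this measure. With 3 libraries per day it cannot decide whether same-numbered libraries shared a collection day or batch, which the labels do not say. With the replicate number as a block, 3 receptors were called from 4 to 7 dpi, Nr1h3 being added (log2FC -1.10, adjusted P = 0.0316), and 9 at any time point. The counts of receptors in the other comparisons were as without the block.

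Vdr rests on 22 to 159 counts per library, while the SE of the log2FC was 0.41 to 0.42 for Nr1h3 against 0.32 to 0.34 for Vdr. With 3 libraries per day, no outlier test was made.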

Other observations

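Several genes that handle prostaglandins and sterols had courses of their own. Hpgds, whose enzyme makes prostaglandin D2, a precursor of PPAR ligands, was at 2.52 to 2.68 CPM at 1 dpi, 22.0 to 24.3 CPM at 2 dpi, 38.8 to 70.1 CPM at 4 dpi and 76.5 to 123 CPM at 7 dpi, without overlap between days, and rose from 1 to 2 dpi (log2FC 3.15 ± 0.25, edgeR adjusted P = 3.02e-06) and from 2 to 4 dpi (1.29 ± 0.22, adjusted P = 0.000738). The sterol synthesis gene Sqle fell from 1 to 7 dpi (-2.26 ± 0.38, adjusted P = 0.000140). Ppargc1b, a coactivator gene of mitochondrial programmes, was at 0 to 0.657 CPM at 1 dpi and 3.65 to 4.43 CPM at 7 dpi (3.51 ± 0.58, adjusted P = 0.000127). Among clock genes outside the intervals described, Bhlhe41 rose (3.68 ± 0.39, adjusted P = 2.31e-06) and its paralog Bhlhe40 fell (-2.33 ± 0.27, adjusted P = 5.86e-06) from 1 to 7 dpi.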
